A study of Homo sapiens with 6 samples.

Results

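The troponin genes encode the calcium switch of striated muscle, and they were followed here as a set of 8 genes in cardiomyocytes derived from WTC11, an established line of human pluripotent stem cells made by reprogramming (iPSC). The members were taken by gene symbol and comprise the troponin C genes TNNC1 and TNNC2, the troponin I genes TNNI1, TNNI2 and TNNI3, and the troponin T genes TNNT1, TNNT2 and TNNT3. All 8 were found among the 38557 genes listed. The cells, labelled WT, were kept in one of 2 backbone media, RPMI plus B27 (RPMI libraries) or DMEM plus fatty acids (DMEM libraries), and each medium had 3 libraries that the labels call biological replicates. B27 is a serum-free supplement. The labels give neither the age of the cultures nor the composition of the media, and all libraries come from a single cell line. Bulk RNA was sequenced from libraries made with an mRNA kit, and the gene counts per library were 23232324 to 31035389. The question addressed was how troponin transcripts, and the balance of isoforms within each subunit, compared between the media.

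Troponin C binds calcium, troponin I holds the thin filament off until calcium arrives, and troponin T anchors the complex to tropomyosin. Each subunit has isoforms from separate genes. TNNC1 serves heart and slow skeletal muscle and TNNC2 fast skeletal muscle. TNNI1 is the slow skeletal form and also the main troponin I of the fetal heart, where TNNI3, the cardiac form with an extra N-terminal segment phosphorylated by protein kinase A, replaces it around and after birth. TNNI2 is the fast skeletal form. TNNT2 is the cardiac troponin T, TNNT1 the slow and TNNT3 the fast skeletal form. The ratio of TNNI3 to TNNI1 is widely used as a measure of maturity in iPSC-derived cardiomyocytes.

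The cells carried transcripts of the cardiomyocyte label. All 12 markers in a cardiomyocyte list without troponins were detected, with a summed level of 31001 to 37820 CPM (counts relative to library size, scaled by TMM, the trimmed mean of M-values) in RPMI and 24041 to 35037 CPM in DMEM. Of 12 skeletal muscle markers, MYOD1, MYF5, PAX7 and MYH8 were at 0 counts in all 6 libraries, and 9 of the 12 stayed under 10 counts in every library. Of the remaining 3, ACTA1 had 565 to 17213 counts, MYH3 26 to 84 and CHRNA1 1 to 10, and ACTA1 is also a heart transcript. Fibroblast and stromal markers summed to 4358 to 8595 CPM in RPMI, highest in replicate 1, and to 736.4 to 1949 CPM in DMEM. All 12 of 12 were lower in DMEM and 7 of them were called (adjusted p under 0.05 by edgeR), where 1.07% of all genes tested were called lower. Smooth muscle markers summed to 1663 to 2221 against 425.1 to 1271 CPM (1 of 8 called) and epicardial markers to 1973 to 2395 against 882.6 to 1097.6 CPM (1 of 6 tested called), both lower in DMEM. The epicardial sum was nearly all keratins, KRT8, KRT18 and KRT19, with means of 1301, 689.0 and 179.5 CPM in RPMI, and the called gene was KRT8. In RPMI TBX18 averaged 4.98 CPM, and ALDH1A2, TCF21, WT1 and UPK3B 0.736, 0.643, 0.564 and 0.312 CPM, so the sum says little of epicardial cells. The endothelial sum went the other way, 54.8 to 249.2 CPM in RPMI and 119.3 to 471.2 CPM in DMEM, with overlap. It was mostly 1 gene, KDR, with means of 136.5 CPM in RPMI and 325.8 CPM in DMEM, while PECAM1, CDH5 and VWF were at most 0.4145 CPM in any library. Of 3 endothelial markers tested 2, TEK and EGFL7, were lower without overlap under TMM, as were 12.8% of all genes tested. TEK was near the floor, with means of 0.779 CPM in RPMI and 0.179 CPM in DMEM. The third, KDR, was higher with overlap, and 0 of the 3 were called by edgeR. At an unadjusted p under 0.05 there were 2 of the 3, against 17.7% of all genes. KDR was called in the fit blocked on replicate number (log2 fold change 1.49, adjusted p 0.0245), which called 1.36% of all genes higher. In bulk RNA, fewer cells of a type and less RNA per cell cannot be told apart, and the part of these other cell types in the troponin results was not tested.

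The genes for troponin I and troponin T lie as pairs on 3 chromosomes. The positions are from RefSeq on GRCh38.p14, the assembly that hg38 in the submitters' processing notes refers to. TNNT2 (chr1:201359014-201377680, minus strand) and TNNI1 (chr1:201403784-201421730, minus strand) are separated by 26.1 kb that hold the coding gene LAD1. TNNT1 (chr19:55132698-55149206, minus strand) and TNNI3 (chr19:55151767-55157732, minus strand) are 2.56 kb apart with no coding gene between them. TNNI2 (chr11:1838981-1841678, plus strand) and TNNT3 (chr11:1919552-1938702, plus strand) are 77.9 kb apart, with the coding genes LSP1 and PRR33 between them. TNNC1 (chr3:52451100-52454041, minus strand) and TNNC2 (chr20:45823214-45833306, minus strand) stand alone. In that annotation 1 other gene overlaps a member, the long non-coding RNA LOC101929343 at TNNI1. Reads in the overlap could be left out as ambiguous or counted for a single gene, depending on an annotation and strand setting that are not given. By counts, the pair on chromosome 1 supplied most troponin T and troponin I reads in all 6 libraries, the pair on chromosome 19 was intermediate and the pair on chromosome 11 had at most 172 counts for a gene in a library.

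**Figure D1:**
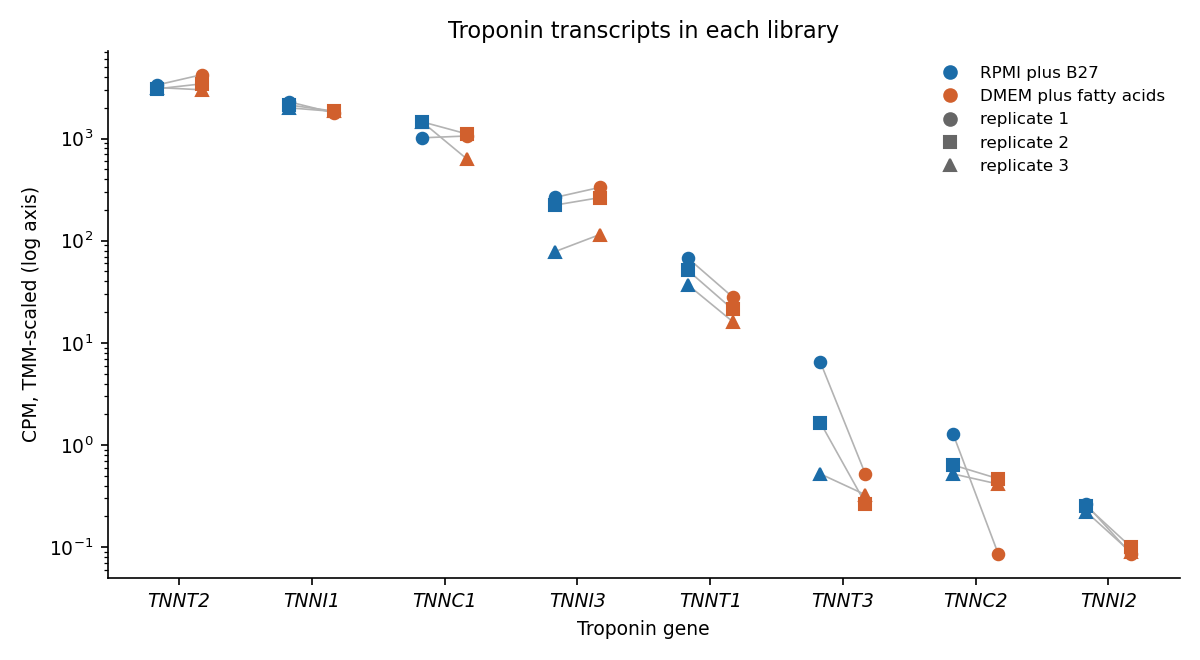
Level of the 8 troponin genes in each library, as TMM-scaled CPM on a log axis. Blue points are RPMI plus B27 and orange points DMEM plus fatty acids, the marker shape gives the replicate number, and grey lines join libraries with the same number. TNNT2, TNNI1 and TNNC1 lie between 627.5 and 4216 CPM, while TNNT3, TNNC2 and TNNI2 lie between 0.0861 and 6.48 CPM.

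Promoters of 3 members were at hand from RefSeq (GRCh38.p14), those of TNNT2, TNNI3 and TNNT1, and all 3 are shown. Promoters of TNNC1, TNNC2, TNNI1, TNNI2 and TNNT3 had no entry. Each window of 300 bases runs from 250 bases before the annotated start to 50 after it, on the minus strand, at chr1:201377631-201377930 for TNNT2, chr19:55157683-55157982 for TNNI3 and chr19:55149157-55149456 for TNNT1. Capitals mark the TATA box (TATAAA), the core bound by GATA factors (GATAA, which reads as TTATC when it lies on the opposite strand) and the MCAT core bound by TEAD factors (CATTCC).
TNNT2: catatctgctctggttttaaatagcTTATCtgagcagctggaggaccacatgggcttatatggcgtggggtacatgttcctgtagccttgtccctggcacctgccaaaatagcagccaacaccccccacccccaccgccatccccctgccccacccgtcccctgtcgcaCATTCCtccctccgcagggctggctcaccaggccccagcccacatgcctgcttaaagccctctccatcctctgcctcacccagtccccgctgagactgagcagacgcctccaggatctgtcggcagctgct
TNNI3: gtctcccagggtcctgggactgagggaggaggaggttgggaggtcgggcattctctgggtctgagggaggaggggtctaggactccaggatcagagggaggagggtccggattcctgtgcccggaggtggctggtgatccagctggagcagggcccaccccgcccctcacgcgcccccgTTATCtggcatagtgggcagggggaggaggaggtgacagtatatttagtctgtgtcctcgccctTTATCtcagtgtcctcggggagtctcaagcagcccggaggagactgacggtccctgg
TNNT1: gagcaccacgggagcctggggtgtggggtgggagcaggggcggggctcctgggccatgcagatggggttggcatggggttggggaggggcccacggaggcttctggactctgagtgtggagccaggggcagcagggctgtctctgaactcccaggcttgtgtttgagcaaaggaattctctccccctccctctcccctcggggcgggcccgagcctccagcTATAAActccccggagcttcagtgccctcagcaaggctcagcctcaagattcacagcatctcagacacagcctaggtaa
With the first transcribed base as +1, the TNNT2 window held CATTCC from position -81 and TTATC from position -225, the TNNI3 window held TTATC from positions -71 and -7, and the TNNT1 window held TATAAA from position -29. Both strands of 35116 promoter windows of the same length were searched. TATAAA occurred in 11.5% of them, GATAA in 22.7%, CATTCC in 14.03% and the E-box CANNTG in 68.7%. All 3 printed windows held an E-box, 5 in TNNT2 and 1 each in TNNI3 and TNNT1, and these overlap none of the capitals. The CArG box and the MEF2 motif, found in 1.29% and 2.99% of windows, had no match in these 3. A match describes letters and is not evidence of binding.

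Together the 8 genes took 0.646% to 0.677% of gene counts in RPMI and 0.609% to 0.741% in DMEM, so the summed troponin output differed by less than the spread in DMEM. Levels of different genes can be compared only per length. Per kb of coding length in RPMI, the order was TNNI1 (3810 ± 258 CPM per kb), TNNT2 (3687 ± 159), TNNC1 (2715 ± 528), TNNI3 (299.5 ± 155.6), TNNT1 (62.7 ± 18.5), TNNT3 (3.73 ± 4.09), TNNC2 (1.70 ± 0.852) and TNNI2 (0.453 ± 0.0386) (SD, n = 3). The ranges of TNNI1 and TNNT2 overlapped in that medium, as did those of TNNT3 and TNNC2. In DMEM TNNT2 (4108 ± 713 CPM per kb) came before TNNI1 (3249 ± 73.1) with no overlap, followed by TNNC1 (1928 ± 547), TNNI3 (376.8 ± 176.8), TNNT1 (26.2 ± 7.17), TNNC2 (0.673 ± 0.431), TNNT3 (0.478 ± 0.168) and TNNI2 (0.168 ± 0.0138), where TNNC2 overlapped both TNNT3 and TNNI2. The place of TNNI1 depended on its length. Its principal transcripts in GENCODE run from 1100 to 5413 bases with the same coding length of 561, and by the longest of them its level was 394.9 ± 26.7 CPM per kb in RPMI and 336.7 ± 7.58 in DMEM. TNNI3, with a single principal transcript of 840 bases, then stood at 224.6 ± 116.7 and 282.6 ± 132.6, and in DMEM replicate 1 it exceeded TNNI1 (396.3 against 328.0 CPM per kb). Comparisons of a gene with itself between media do not depend on length if the same transcripts are used in both, which was not measured.

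Of the 7 troponin genes that passed the filter on low counts, 0 passed the threshold of 0.05 on the p-value adjusted over 16107 genes (edgeR's quasi-likelihood test with Benjamini-Hochberg adjustment), where 1.36% of all genes were called, 0.292% higher and 1.07% lower in DMEM. At an unadjusted p under 0.05 there were 2 of the 7, TNNT1 and TNNT3, against 17.7% of all genes. The 5 lower genes were TNNC1, TNNC2, TNNI1, TNNT1 and TNNT3, the 2 higher were TNNI3 and TNNT2, and the median log2 fold change of DMEM over RPMI was -0.49 against 0.01 for all genes. Libraries of the media did not overlap in CPM for 4 of the 7 (TNNC2, TNNI1, TNNT1 and TNNT3, all lower in DMEM), and 12.8% of all genes tested were lower without overlap and 12.8% higher. Scaled by total counts, only TNNC2 and TNNT1 of the 7 were lower without overlap (8.31% of all genes), TNNI1 and TNNT3 overlapped, and TNNT2 was higher without overlap (20.6% of all genes). For TNNC2 the gap rested on library size alone, with 14 counts each in RPMI replicate 3 and in DMEM replicates 2 and 3. The replicate numbers were taken as pairing the libraries from correlations in these same data, although no label states what a number marks. With that assumption, a fit blocked on them called 1 of the 7, TNNT1, and 4.78% of all genes (1.36% higher, 3.42% lower). The DESeq2 Wald test called 2, TNNT1 and TNNT3, both lower, and 7.52% of all genes (2.4% higher, 5.13% lower). Without a filter on low counts edgeR called 1 of the 8, TNNT1, and 2.0% of all genes (0.467% higher, 1.53% lower).

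**Figure D2:**
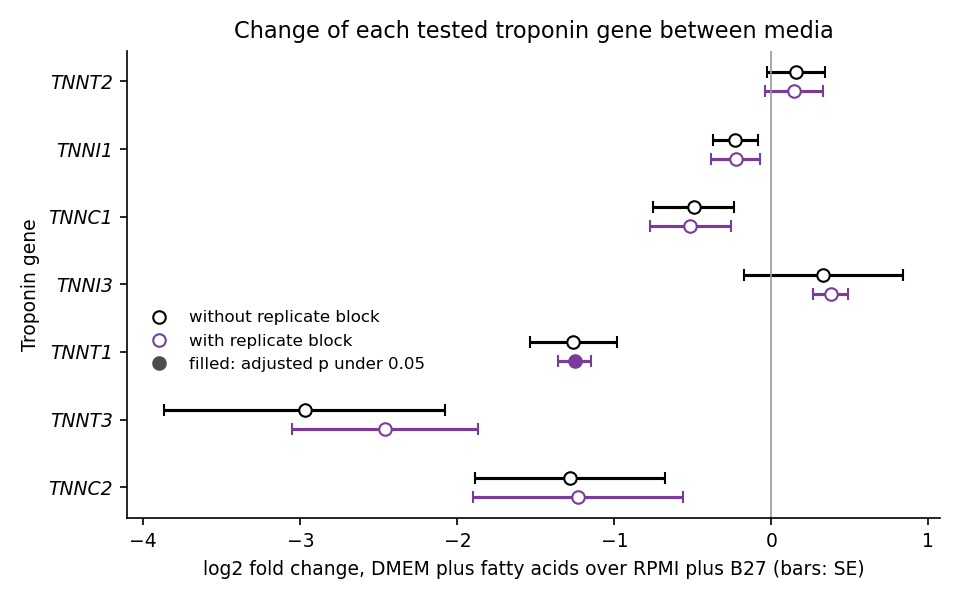
Log2 fold change of the 7 tested troponin genes, DMEM over RPMI, from the edgeR fit without (black) and with (purple) a block on replicate number, with bars for the standard error and filled points for an adjusted p under 0.05. TNNT1 with the block is the single filled point, at -1.25, and the bar of TNNI3 narrows from 0.51 to 0.11 when the block is added.

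TNNT2, the gene behind the cardiac troponin T used in clinical assays and in cytometry of iPSC cardiomyocytes, was the most abundant by counts. It stood at 3334, 3063 and 3159 CPM in RPMI (replicates 1 to 3) and at 4216, 3430 and 3001 CPM in DMEM. The media overlapped, with replicate 1 the highest library in DMEM and replicate 3 the lowest of all 6. This order rests on TMM. Scaled by total counts, TNNT2 stood at 3166, 2994 and 3033 CPM in RPMI and at 4214, 3523 and 3262 CPM in DMEM, with every DMEM library above every RPMI library. The log2 fold change was 0.16 ± 0.19 (SE, adjusted p 0.706 by edgeR), 0.26 under total-count scaling (adjusted p 0.413) and 0.01 without DMEM replicate 1.

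TNNT1 was the member with the most even difference. Its CPM was 68.0, 51.6 and 37.2 in RPMI and 28.1, 21.3 and 16.2 in DMEM. Every DMEM library lay below every RPMI library, and within each replicate number the level in DMEM was 0.413, 0.412 and 0.434 of that in RPMI. The log2 fold change was -1.26 ± 0.28 (SE, adjusted p 0.0808 by edgeR). In the blocked fit it was -1.25 ± 0.11 (adjusted p 0.00823 by edgeR), and TNNT1 was then called lower. Over its 12 alternatives the adjusted p ran from 0.00121 to 0.235, and 3 of them passed, the block, the DESeq2 Wald test (0.00121) and the fit without a filter on low counts (0.0221). Replicate 1 was the highest and replicate 3 the lowest in both media.

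TNNT3, the fast skeletal form, had 172, 39 and 14 counts in RPMI and 12, 8 and 11 in DMEM, or 6.48, 1.66 and 0.522 against 0.517, 0.268 and 0.326 CPM. The groups did not overlap under TMM by a margin of 0.522 against 0.517 CPM, from 14 counts in RPMI replicate 3 and 12 in DMEM replicate 1. Scaled by total counts the groups overlapped, at 0.501 and 0.517 CPM in those libraries. Most of the counts came from RPMI replicate 1, the library with the highest fibroblast and stromal sum (8595 CPM) and the most ACTA1. The log2 fold change of -2.97 ± 0.89 (adjusted p 0.158, edgeR) was -1.56 ± 0.59 without that library (adjusted p 0.293). The DESeq2 Wald test gave an adjusted p of 0.00995 and the fit with the block 0.0749.

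Troponin I was mostly TNNI1 by counts. TNNI1 stood at 2287, 2127 and 1998 CPM in RPMI and at 1776, 1852 and 1840 CPM in DMEM. The media did not overlap, and the coefficient of variation within a medium was 6.76% and 2.25%, lower than for any other tested member except TNNT2 in RPMI (4.33%). The log2 fold change was -0.23 ± 0.14 (adjusted p 0.449, edgeR). Under scaling by total counts, which moves the median of all genes to 0.12, it was -0.12, and the media overlapped, at 2171, 2080 and 1919 CPM in RPMI and 1775, 1902 and 2000 CPM in DMEM, with DMEM the higher in replicate 3.

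TNNI3 differed more between replicate numbers than between media. Its CPM was 265.0, 222.9 and 78.1 in RPMI and 332.9, 264.3 and 115.0 in DMEM, so replicate 3 was the lowest in both media. The ranges overlapped, while within each replicate number DMEM was higher, by 1.26, 1.19 and 1.47 times. The log2 fold change was 0.33 ± 0.51 (adjusted p 0.777, edgeR) and 0.38 ± 0.11 in the blocked fit (adjusted p 0.120, unadjusted p 0.016). Without RPMI replicate 3 the value was -0.04, and without DMEM replicate 1 it was 0.01.

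As a share of all troponin I counts, TNNI3 made up 10.4%, 9.48% and 3.76% in RPMI and 15.8%, 12.5% and 5.88% in DMEM, with 95% Wilson intervals of at most 0.323 percentage points on either side. The share was higher in DMEM in 3 of 3 replicate numbers, by 5.40, 3.01 and 2.12 points. The means were 7.88% ± 3.59 and 11.4% ± 5.04 (SD, n = 3), a difference of 3.51 points with p = 0.4 by an exact two-sided permutation test (0.5 after adjustment over 12 shares). That test cannot give less than 0.1 with 3 against 3 libraries. The size of the difference rested on single libraries: it was 1.31 points without DMEM replicate 1, 1.45 without RPMI replicate 3 and 6.26 without DMEM replicate 3. Within replicate numbers the exact sign-flip test gave p = 0.25, the smallest that 3 pairs allow. The ratio TNNI3 to TNNI1, which no scaling of libraries affects, differed by 0.61 on the log2 scale, by 0.69, 0.45 and 0.68 in replicates 1 to 3 (exact permutation p = 0.5, 0.5 after adjustment over 5 ratios). With single libraries left out it ran from 0.11 (without RPMI replicate 3) to 1.07 (without DMEM replicate 3). Divided by the longest principal transcripts, the share of TNNI3 was 34.4% ± 12.4 in RPMI and 43.8% ± 13.5 in DMEM. The level of the share thus rests on the TNNI1 transcript assumed. The order of the media within each replicate number does not, as long as the same transcript is assumed in both media.

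**Figure D3:**
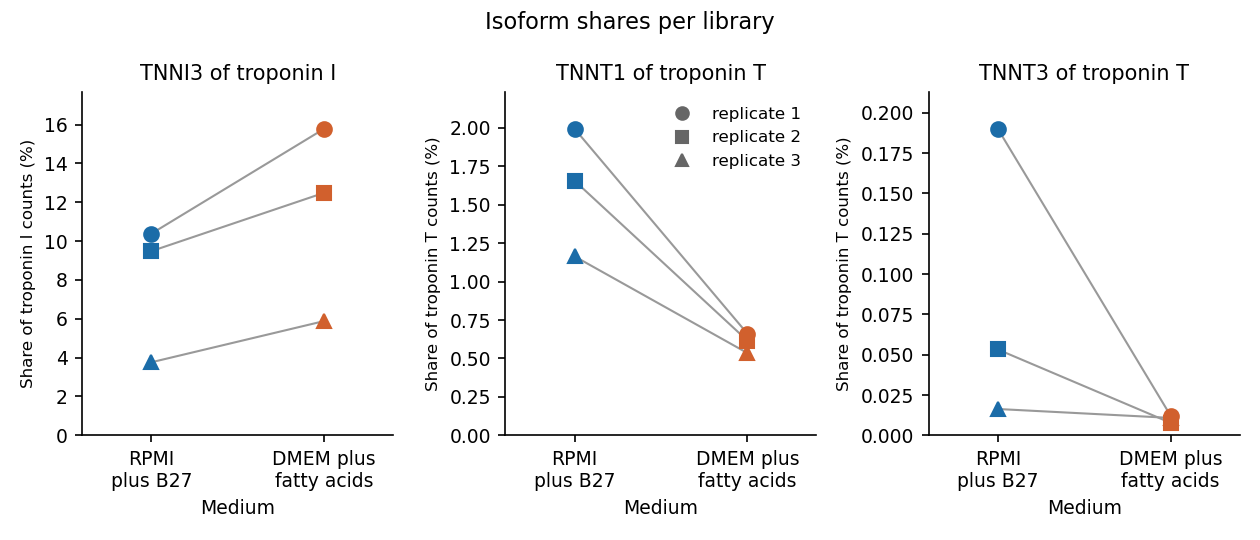
Share of TNNI3 in troponin I counts and of TNNT1 and TNNT3 in troponin T counts, in percent of counts per library, with lines joining libraries of the same replicate number. The lines for TNNI3 are higher in DMEM in all 3 replicate numbers but span 3.76% to 15.8%, and those for TNNT1 are lower, from 1.16% to 1.99% in RPMI to 0.535% to 0.661% in DMEM.

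Within troponin T, TNNT2 took 98.3% ± 0.502 of counts in RPMI and 99.4% ± 0.0642 in DMEM (SD, n = 3). TNNT1 made up 1.99%, 1.66% and 1.16% against 0.661%, 0.616% and 0.535%. The media did not overlap, and the spread of the TNNT1 share in DMEM (SD 0.0639 points) was smaller than in RPMI (0.417). The difference of -1.0004 points had p = 0.1 by the exact permutation test, the smallest possible with 3 against 3 libraries (0.2 after adjustment over 12 shares). The ratio TNNT1 to TNNT2 differed by -1.39 on the log2 scale, and by -1.61, -1.44 and -1.13 within replicates 1 to 3 (exact permutation p = 0.1, 0.167 after adjustment over 5 ratios). TNNT3 was 0.190%, 0.0533% and 0.0163% against 0.0122%, 0.00775% and 0.0108% of troponin T counts, and the gap between the media in replicate 3 was smaller than the spread among the RPMI libraries.

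Troponin C was TNNC1 almost alone. TNNC1 stood at 1017, 1459 and 1458 CPM in RPMI and at 1060, 1107 and 627.5 CPM in DMEM. The media overlapped, because RPMI replicate 1 (1017 CPM) lay below the DMEM libraries at 1060 and 1107 CPM. DMEM replicate 3 was the lowest of all, below every RPMI library, and had no part in the overlap. Within replicate numbers the level in DMEM was 1.04, 0.759 and 0.430 of that in RPMI, which is no common direction. The log2 fold change was -0.49 ± 0.26 (adjusted p 0.368, edgeR).

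TNNC2, the fast skeletal troponin C, had 34, 15 and 14 counts in RPMI and 2, 14 and 14 in DMEM, with a log2 fold change of -1.28 ± 0.61 (adjusted p 0.323, edgeR) that was -0.79 without RPMI replicate 1. In CPM the highest and the lowest library were both of replicate 1 (1.28 and 0.0861) and the other 4 lay between 0.415 and 0.638. The media were apart by 0.522 against 0.468 CPM under TMM and 0.501 against 0.481 by total counts, from 14 counts each in RPMI replicate 3 and DMEM replicate 2. Summed per medium the ratio per total count was 0.456, with an exact 95% interval of 0.285 to 0.716 that covers counting error only. Its share of troponin C counts was 0.0684% ± 0.0498 and 0.0388% ± 0.0291 (SD, n = 3), lower in DMEM in replicates 1 and 2 and higher in replicate 3.

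TNNI2 did not pass the filter. It had 7, 6 and 6 counts in RPMI and 2, 3 and 3 in DMEM, where 3 counts correspond to 0.0967 to 0.129 CPM. Summed per medium that is 19 against 8 counts, a ratio per total count of 0.404 with an exact 95% interval of 0.153 to 0.965, which covers counting error between these libraries only. Without a filter on low counts its adjusted p was 0.383 (edgeR). The 3 fast skeletal genes together made up 0.115%, 0.0369% and 0.0188% of troponin counts in RPMI and 0.00929%, 0.0125% and 0.0148% in DMEM.

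The balance of subunits also differed between libraries. By counts, troponin T made up 48.8%, 45.0% and 47.5% of troponin transcripts in RPMI and 57.3%, 51.7% and 53.9% in DMEM. The media did not overlap and the share was higher in DMEM in 3 of 3 replicate numbers, a difference of 7.18 points (exact permutation p = 0.1, the smallest possible, 0.2 after adjustment over 12 shares). Troponin C made up 19.1% ± 3.93 and 14.03% ± 2.70 and troponin I 33.8% ± 2.86 and 31.7% ± 3.23 (SD, n = 3), with overlap between the media in both. Per kb of coding length, troponin C, I and T took 25.7% ± 4.96, 38.8% ± 3.61 and 35.5% ± 1.97 in RPMI. In DMEM they took 19.7% ± 3.62, 37.8% ± 3.91 and 42.6% ± 2.79. These shares rest on the length assumed. By the longest principal transcripts, troponin I took 12.7% ± 3.10 in RPMI and 13.4% ± 0.259 in DMEM. Troponin T then took 49.9% ± 3.98 and 58.6% ± 4.30, and the media overlapped, at 54.3% in RPMI replicate 1 and 54.1% in DMEM replicate 2. These are transcript shares and say nothing of protein.

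**Figure D4:**
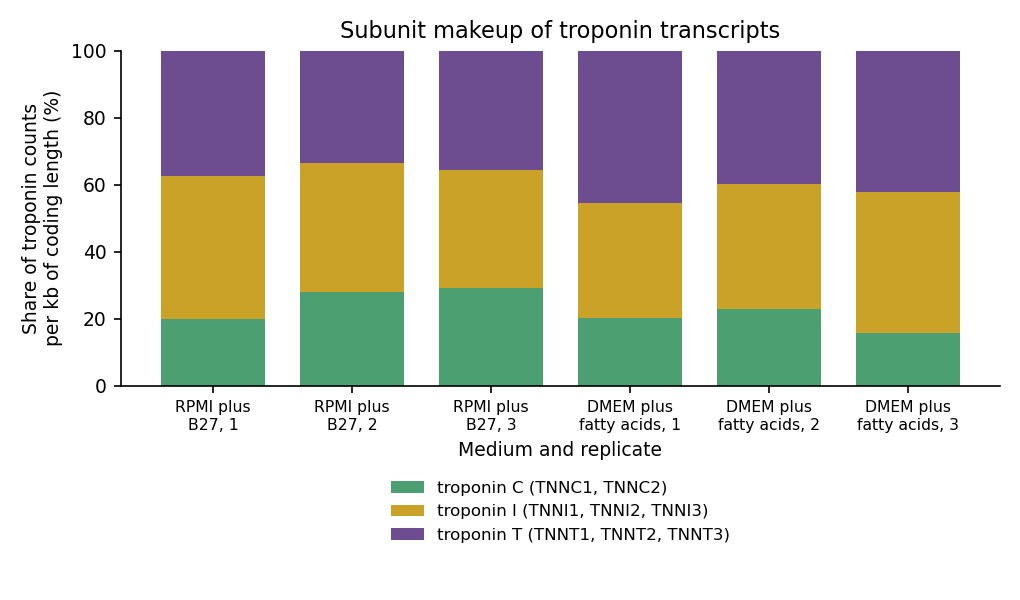
Share of troponin C, I and T among troponin counts divided by coding length, in percent, 1 bar per library (medium and replicate number). Troponin T runs from 33.5% to 37.4% in the RPMI bars and from 39.9% to 45.5% in the DMEM bars. By the longest principal transcripts, not drawn, the troponin T shares of the media overlap.

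The log2 ratio of each member to the summed counts of the 12 cardiomyocyte markers gives a scale within the library. It differed between media by 0.30 for TNNT2 and 0.54 for TNNI3, each higher in DMEM in 3 of 3 replicate numbers, by -1.09 for TNNT1 and -2.12 for TNNT3, each lower in 3 of 3, and by -0.07 for TNNI1 and -0.36 for TNNC1. With single libraries left out TNNT3 ran from -2.91 (without RPMI replicate 3) to -1.26 (without RPMI replicate 1). The smallest exact permutation p among the 8 members was 0.1, which is 0.267 after adjustment over them. With ACTN2 (alpha-actinin, a Z-disc protein) alone as the denominator the values of TNNI1 and TNNC1 turned to 0.82 and 0.53, and those of TNNT1 and TNNT3 shrank to -0.21 and -1.23 (exact permutation p = 0.5 and 0.3), because ACTN2 itself had a mean of 2218 ± 474 CPM against 1109 ± 380 (SD, n = 3) in DMEM.

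The partners of troponin on the thin filament were mostly lower in DMEM, and 2 of the tropomyosins fell. Of 13 thin filament partners 12 were tested, 10 lower and 2 higher, with a median log2 fold change of -0.58 against 0.01 for all genes. Of the 12, 2 were called by edgeR, both lower, where 1.07% of all genes were called lower. TPM4, a tropomyosin of non-muscle and stromal cells as well as embryonic heart, was at 354.6, 273.0 and 262.9 CPM in RPMI and 95.3, 124.3 and 99.5 CPM in DMEM (log2 fold change -1.48 ± 0.17, adjusted p 0.0252, edgeR). TPM2, the beta tropomyosin, was at 751.0, 712.4 and 619.5 CPM against 339.0, 351.6 and 294.1 CPM (-1.08 ± 0.14, adjusted p 0.0292). Neither gene overlapped between media, and without RPMI replicate 2 their adjusted p was 0.0915 and 0.109 (edgeR). With single libraries left out, TPM4 passed only without RPMI replicate 1 or RPMI replicate 3, and TPM2 only without RPMI replicate 3. Stromal and smooth muscle cells also use both genes, and the sums of their markers given above were lower in the same medium, and their part in these calls was not tested. TPM1, the main tropomyosin of cardiomyocytes, which troponin T binds directly, had -0.66 ± 0.22 (adjusted p 0.187 by edgeR, and 0.0353, called, by DESeq2). ACTA2, smooth muscle actin, had -1.56 ± 0.62 (adjusted p 0.253 by edgeR) and, without DMEM replicate 2, -2.80 with a call (adjusted p 0.00966).

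Of 9 thick filament isoforms 7 were tested, 3 higher and 4 lower, and 0 were called by edgeR. At an unadjusted p under 0.05 there were 2 of the 7, against 17.7% of all genes. The same 2 were called by the DESeq2 Wald test, which called 7.52% of all genes. MYH7, the beta myosin heavy chain, stood at -1.27 ± 0.39 on the log2 scale (adjusted p 0.163 by edgeR, 0.0359 in the blocked fit, 0.0124 by DESeq2). MYH6, the alpha form, stood at 0.86 ± 0.27 (0.166, 0.0797 and 0.0179). MYL4 and MYBPC3 had -0.15 ± 0.22 and 0.10 ± 0.21. The median log2 fold change was -0.24 over the tested splicing factors named next and -0.17 over the transcription factors, against 0.01 for all genes.

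Genes known to act on troponin transcripts or proteins gave 1 call by edgeR, where 1.36% of all genes were called. Of 11 splicing factors with troponin T targets, 10 were tested, 8 lower and 2 higher, and RBFOX2, a regulator of muscle exons including those of troponin T, fell from 441.4, 350.1 and 348.9 CPM in RPMI to 174.4, 163.4 and 133.7 CPM in DMEM. Its log2 fold change was -1.27 ± 0.16 (adjusted p 0.0292, edgeR, and 0.0958 at most over its alternatives), and the media did not overlap. With single libraries left out RBFOX2 passed only without RPMI replicate 3. Over those fits, which called 3 to 131 of all genes tested, its log2 fold change ran from -1.36 to -1.15. CELF2, RBM24 and PTBP1 had 0.38 ± 0.21, -0.33 ± 0.19 and -0.28 ± 0.16 (adjusted p 0.395 to 0.416). Counts per gene do not show which exons of TNNT2 were used, so splicing was not measured. Of 15 kinases, phosphatases and proteases directed at troponin, 14 were tested, 7 higher and 7 lower, and 0 were called or had an unadjusted p under 0.05 (edgeR). The DESeq2 Wald test also called 0 of them. The smallest p-values were those of CAPN1 (calpain, which cleaves troponins, 0.28 ± 0.13), PRKCA (0.27 ± 0.16), TRIM63 (MuRF1, a ubiquitin ligase of troponin I, 0.34 ± 0.22) and PRKD1 (0.26 ± 0.25), as log2 fold changes.

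Of 14 transcription factors of muscle promoters, all tested, 5 were higher and 9 lower and 0 were called by edgeR. At an unadjusted p under 0.05 there were 3 of the 14, near the 17.7% of all genes. Those 3 were MEF2C (0.39 ± 0.10, adjusted p 0.123), MYOCD (myocardin, -0.45 ± 0.14, adjusted p 0.165) and TEAD1, of the family that binds MCAT cores (-0.34 ± 0.11, adjusted p 0.180), and the next was SRF (-0.59 ± 0.26, adjusted p 0.298). MEF2C passed by the DESeq2 Wald test with an adjusted p of 0.0323, where 7.52% of all genes passed.

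**Figure D5:**
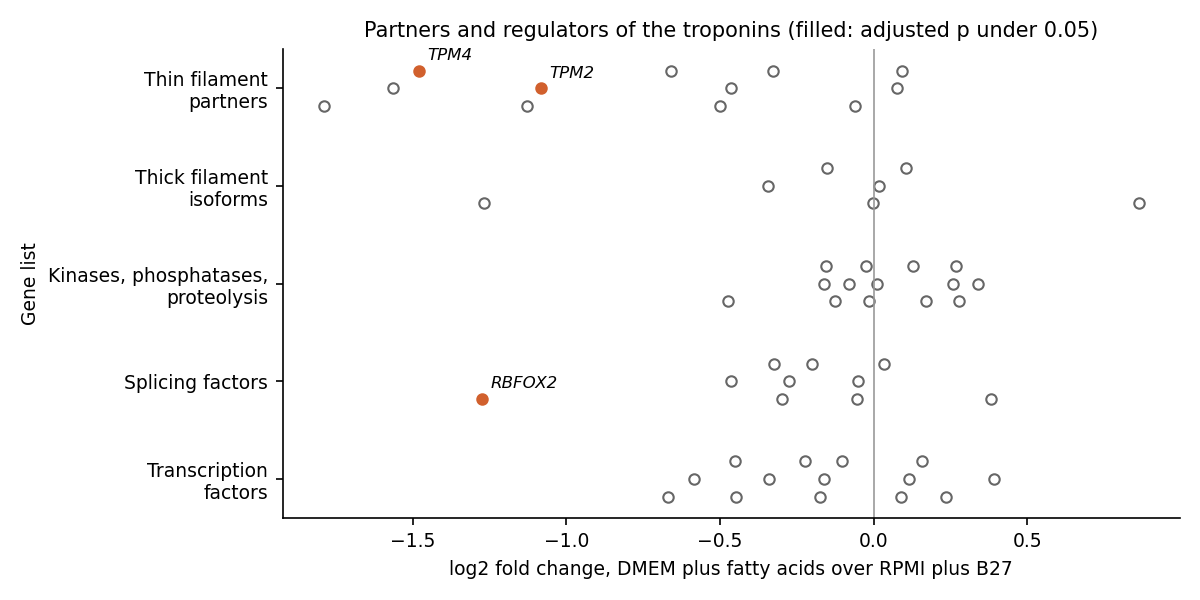
Log2 fold change, DMEM over RPMI, of the tested genes in 5 lists of troponin partners and regulators, 1 point per gene, shifted vertically for legibility. Filled points had an adjusted p under 0.05, and these are TPM4, TPM2 and RBFOX2, all to the left of 0.

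Some of the troponins varied alike over the 6 libraries and others did not. Both media were pooled, so a difference between media enters each correlation. TNNC2, TNNI1, TNNT1 and TNNT3, which form the highest correlations below, were the tested members lower in DMEM without overlap under TMM. Pearson's r of log2 CPM between members, over 6 libraries that share their scaling, was 0.91 for TNNT3 with TNNI1, 0.90 for TNNT1 with TNNI1, 0.90 for TNNT3 with TNNT1 and 0.86 for TNNC2 with TNNI1. For TNNC2 it was 0.65 with TNNT3 and 0.57 with TNNT1. It was 0.02 for TNNI3 with TNNI1, 0.06 for TNNT2 with TNNC1 and 0.65 for TNNT2 with TNNI3. The chromosome 19 neighbours TNNT1 and TNNI3 correlated at 0.21 and the chromosome 1 neighbours TNNT2 and TNNI1 at -0.43. Among 10023 tested genes averaging 10 CPM or more, those most like TNNI3 were FABP3 (heart-type fatty acid binding protein, r = 0.995), PPP1R3B (0.993) and SMAD9 (0.991). The nearest to TNNT2 were TSC1 (0.999), DBI (0.998) and PIK3C2A (0.995), to TNNI1 NIPAL3 (0.998), DGKA (0.997) and TMEM134 (0.997), and to TNNC1 MYADM, HECW2 (0.992 each) and SRF (0.989). The nearest to TNNT1 were ANTXR1, SEC61G (0.997 each) and ANO6 (0.995). For the sparse TNNT3 they were GNG7, C10orf88 and RPS14 (0.994 each) and for TNNC2 FBXO41 (0.992), PAQR7 (0.991) and SLC2A10 (0.989). With so many genes and 6 libraries, values this near 1 describe a resemblance of 6 points and no more.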

How the data were processed

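RNA was purified on RNeasy columns with DNase digestion and sequenced from Illumina stranded mRNA libraries, per the labels' protocols. The authors deposited unnormalized counts by gene symbol, separately for each library. STAR, HTSeq and hg38 are named in the submitters' processing notes, and versions, annotation and strand setting are not given in the sources used here. The 5 summary rows were kept out of all totals. Those rows held 5.44% to 7.57% (no gene), 3.90% to 4.15% (ambiguous) and 3.05% to 4.10% (not uniquely aligned) of everything counted in a library, and such reads are missing from the gene values.

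The test was edgeR 4.0.16 under R 4.3.3: filterByExpr defaults (minimum count 10, minimum total count 15), TMM scaling, quasi-likelihood test over all 6 libraries without covariates, Benjamini-Hochberg over 16107 genes, threshold 0.05. DESeq2 1.42.0 was an alternative. SEs were derived from the fold change and its F statistic. Shares and log2 ratios (0.5 added to each count) were compared by exact permutation tests. Nothing says whether the biological replicates were separate differentiations. The edgeR and DESeq2 p-values set the difference between media against variation among these libraries, with information shared over genes. The exact p-values rank that difference among rearrangements of these libraries. Neither kind covers variation that these libraries do not hold. Deviations of libraries from the mean of their medium correlated at 0.31 to 0.43 for the same replicate number and at -0.24 to -0.14 for others. Deviations cancel within a medium, so positive values for the same number make those for others negative on balance. From the positive values the numbers were taken as pairing the libraries, although no label states what a number marks. Groups and numbers come from the titles. Lengths are those of principal transcripts in GENCODE release 29, and positions and promoters are from RefSeq. Of the 38557 symbols, 34951 matched RefSeq, with all 8 members.

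The members, the 5 partner lists and the 8 marker lists were chosen with earlier results of these data known. Named were the 8 members, up to 4 genes with the smallest p and any called gene of each partner list, and the 3 genes most like each tested member. Pluripotent markers summed to 1.19 to 2.86 CPM in RPMI and 1.00 to 1.57 in DMEM, and neural or other markers to 16.1 to 76.7 and 8.78 to 16.2 CPM. The overlap of media under total-count scaling was added after seeing the data. Alternatives covered scaling, filter, tool, block, length and each library left out. Without molecular identifiers, intervals and the limit of 3 counts cover counting error only.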

Additional observations from a re-analysis of the deposited data

How the results depend on the processing

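The number of troponin genes called, 0 in edgeR, was 1 when replicate number was fitted as a block, 2 by the DESeq2 Wald test, 1 without a filter on low counts and 0 with any single library left out. TNNT1 passed in the first 3 of these, at log2 fold changes of -1.25, -1.27 and -1.25, and TNNT3 by DESeq2 at -2.98. Of the 57 partner genes tested, 3 were called by edgeR (1.36% of all genes), 7 by DESeq2 (7.52% of all genes) and 0 to 3 with single libraries left out. Without single libraries TNNI3 ran from -0.038 (without RPMI replicate 3) to 0.67, MYL4 from -0.29 to 0.020 (without DMEM replicate 3) and MYBPC3 from -0.0515 (without DMEM replicate 1) to 0.26. The difference in the log2 ratio of TNNI1 to cardiomyocyte markers ran from -0.26 to 0.037 and was also above 0 without DMEM replicate 2, at 0.01. With ACTN2 as the denominator these differences were 0.53 for TNNC1, 0.82 for TNNI1, -0.24 for TNNI2, 1.42 for TNNI3, -0.21 for TNNT1 and 1.19 for TNNT2. Dividing by the longest principal transcript gave differences in percentage points of -0.0345 (TNNI2 of troponin I), 9.40 (TNNI3 of troponin I), -9.39 (troponin C of all) and 0.728 (troponin I of all, opposite in sign to that by counts), and dividing by the shortest, an alternative chosen after seeing the data, -0.00989 for TNNI2. Where no construction shows it, the cause was not tested. Pairing by block left the calls of the other 6 troponins as they were but also called MYH7, and raised the genes called from 219 to 770. DESeq2 called 1212, no filter 539, at least 10 counts in every library 119, and single libraries left out 3 to 131. Scaling by total counts called 74 higher and 128 lower, against 47 and 172. Depth limits TNNI2, with 2 to 7 counts in a library.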
